A study of Mus musculus with 4 samples.

Results

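Satellite cells, the stem cells of skeletal muscle, are recognised by a small group of surface and adhesion molecules, some of them used for sorting. Here 9 genes of this kind were followed: Cdh15, Cdh2, Vcam1, Itga7, Itgb1, Cd34, Megf10, Cxcr4 and Ncam1. They were taken as all probe sets (the groups of short oligonucleotides that measure a transcript on an Affymetrix array) annotated to 1 of these symbols, which gave 9 of 18193 named genes and 23 of the 45101 probe sets. Ncam1 had 7 probe sets, Itgb1 6, Vcam1 3 and Cdh2 2, while Cdh15, Itga7, Cd34, Megf10 and Cxcr4 had 1 each. The cells came from 10-week-old mice, were not cultured, and were sorted as YFP-positive 2 weeks after tamoxifen. Control mice were Pax7-CreERT2, Calcr+/+ and Rosa-YFP; conditional knockout (cKO) mice were Pax7-CreERT2, Calcr flox/flox and Rosa-YFP, so that both groups carried the Cre at Pax7 and the reporter, both received tamoxifen, and only cells that express Pax7 could delete the calcitonin receptor gene Calcr. Each group had 2 arrays, whose titles call them biological replicates 1 and 2. The number of animals behind each sample is unknown here. Signals are given below for replicate 1 and then replicate 2 of a group.

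A quiescent satellite cell lies between the membrane of a muscle fibre and the basal lamina that surrounds it. Cadherins bind it to the fibre through like molecules on both sides, while the integrin of the alpha7 and beta1 chains binds laminin in the basal lamina. Immunoglobulin-type adhesion molecules (Vcam1, Ncam1), the sialomucin Cd34, the chemokine receptor Cxcr4 and the EGF-repeat receptor Megf10 complete the surface profile followed here. Some of these molecules, such as Vcam1, Itga7 and Cxcr4, are used to purify these cells. Calcr is a receptor of the quiescent cell, and the comparison asked how the transcripts of its surface profile stood after its loss.

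For the gene of the group that is most restricted to the muscle lineage, Cdh15, and for Cd34, the one whose cKO arrays both lay below the control arrays, the 250 bases before the RefSeq transcription start are shown from build GRCm38.p6, with the hexamer CANNTG (the E-box that basic helix-loop-helix factors such as MyoD recognise; the same letters on both strands) in capitals. The Cdh15 window is chr8:122848124-122848373, plus strand, and the Cd34 window is chr1:194938571-194938820, plus strand.
Cdh15: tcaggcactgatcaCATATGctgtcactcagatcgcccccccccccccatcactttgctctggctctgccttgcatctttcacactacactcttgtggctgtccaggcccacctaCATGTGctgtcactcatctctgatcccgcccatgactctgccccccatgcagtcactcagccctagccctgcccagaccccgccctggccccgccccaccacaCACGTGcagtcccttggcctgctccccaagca
Cd34: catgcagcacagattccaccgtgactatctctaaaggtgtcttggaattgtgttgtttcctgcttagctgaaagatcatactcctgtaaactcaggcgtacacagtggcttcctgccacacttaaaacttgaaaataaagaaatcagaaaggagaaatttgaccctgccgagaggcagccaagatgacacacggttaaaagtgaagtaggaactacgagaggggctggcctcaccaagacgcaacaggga
The Cdh15 window held 3 such hexamers, whose first bases lie at -236, -135 and -32 from the start, and the Cd34 window held 0. Of 32851 promoter windows of the same length, 12.2% held at least 3 and 66.2% at least 1. Windows for Cxcr4 and Itgb1, the other members matched in that table (4 of 9 genes), also held 0. These are matches of letters, and no binding was measured.

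Each of the 9 genes had a probe set that passed the signal filter described next, with Cdh2 close to it. Presence was not judged by detection calls. No member was called different between cKO and control. Of the 23 probe sets, 22 reached the signal filter (a mean over the 4 arrays at or above 63.9, the median of all probe sets) and were tested with limma on log2(signal + 1). The one left out, an Itgb1 probe set, read between 0.314 and 4.76. None of the 22 passed an adjusted p under 0.05 in limma (smallest adjusted p = 0.99999), and 0 had an unadjusted p under 0.05, so single p-values are not repeated for each member below. Over all 22519 probe sets tested, 0% were called at the adjusted threshold and 0.724% had an unadjusted p under 0.05. The median log2 difference, cKO minus control, was -0.10 over the 22 members and -0.056 over all probe sets tested; 16 of the 22 members lay below 0 (72.7%), as did 58.9% of all. That balance moved with the scaling of the arrays: 11 of 22 members lay below 0 after quantile normalization (49% of all) and 11 with each array centred on its median (44% of all), with member medians of -0.037 and -0.010. The calcitonin receptor gene itself read 1268 and 1424 in control and 568 and 684 in cKO, in the direction of the labels, with a log2 difference of -1.11 (SE 0.25) that was not called either (limma, adjusted p = 0.99999); whether its probe set lies within the deleted part is unknown here.

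Although nothing passed, the limma intervals give a range for each difference between these arrays. The spread behind them is partly borrowed from other probe sets (2 residual and 5.32 prior degrees of freedom). The intervals leave out the choice of scaling, and with 2 arrays a group they do not bound the effect of the genotype. For the brightest probe set of each gene, the 95% interval of the cKO to control ratio stayed within 2-fold in either direction for 7 of 9 genes, and within 1.5-fold for 4 of them, Vcam1, Megf10, Cxcr4 and Ncam1. By brightest probe set, Cdh15 and Cdh2 were the genes whose interval reached past 2-fold. Dimmer probe sets of other genes did so too. On the dimmest tested probe set the interval ran from 0.390 to 1.53 for Vcam1, 0.362 to 4.44 for Ncam1 and 0.354 to 1.61 for Itgb1. Over all tested members, 13 of 22 intervals lay within 2-fold (59.1%), against 42.5% of all probe sets tested. With 2 arrays a group, an exact permutation test cannot give a 2-sided p below 0.333.

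**Figure D1:**
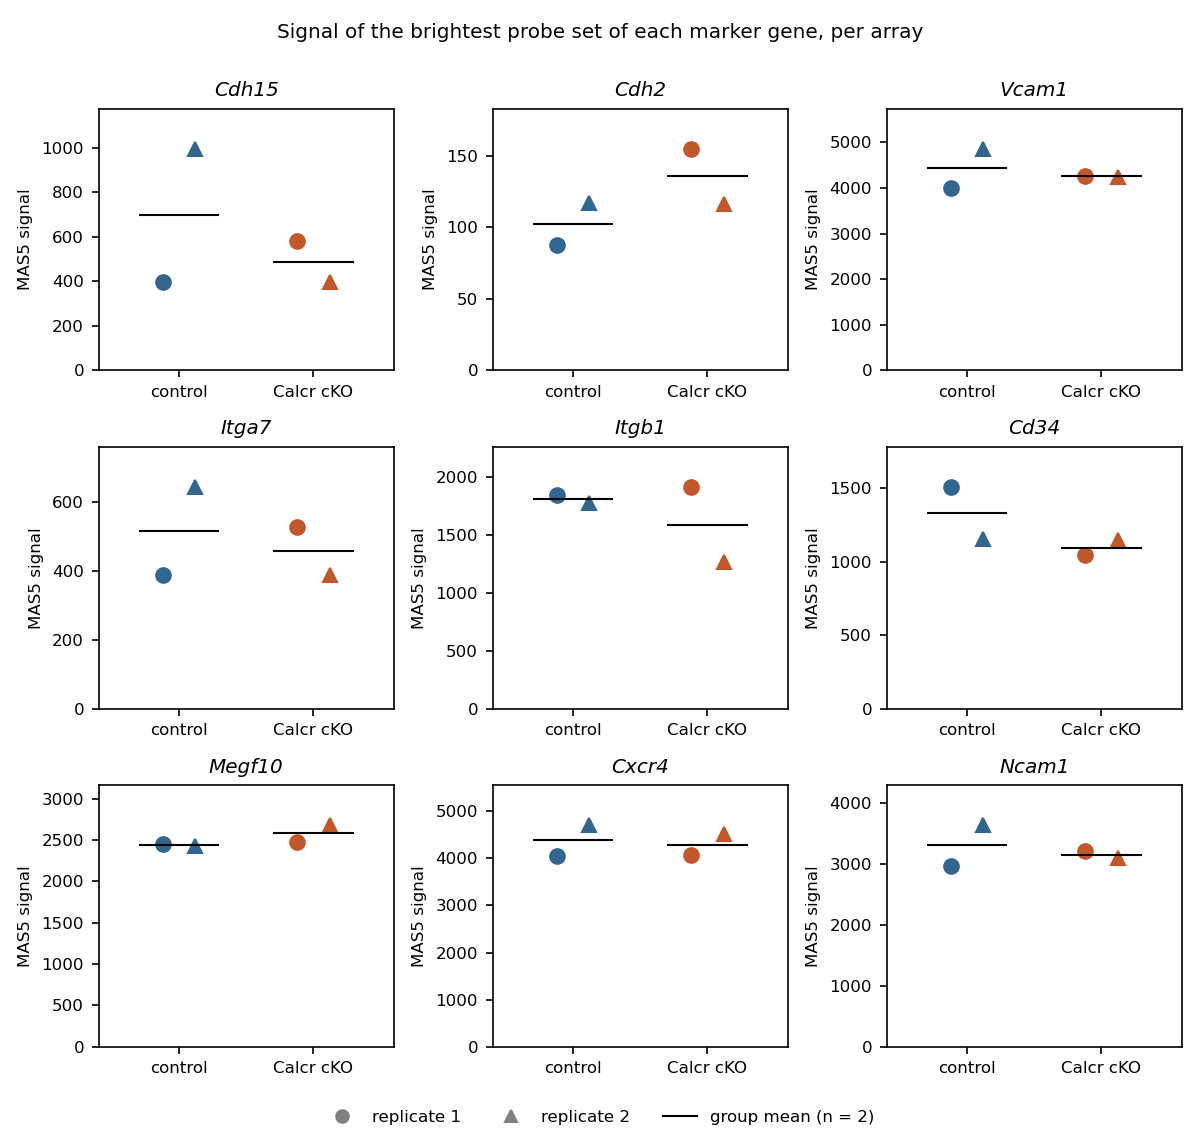
MAS5 signal (linear scale, from 0) of the brightest probe set of each of the 9 genes; each point is 1 array, circles are replicate 1, triangles replicate 2, and bars are group means (n = 2). Control and cKO arrays overlap for all but Cd34 and Megf10; Cd34 is lower and Megf10 higher on both cKO arrays, and Cdh15 has the largest ratio between the control arrays among the 9, 995 on replicate 2 against 398 on replicate 1.

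Cdh15, which encodes M-cadherin, the cadherin of satellite cells and myoblasts, had the widest spread of the 9 genes by brightest probe set. Its probe set read 398 and 995 in control and 580 and 398 in cKO. The high value was control replicate 2, while control replicate 1 and cKO replicate 2 were nearly equal, so the groups overlapped. The group values were 697 ± 422 in control and 489 ± 128 in cKO (SD, n = 2). On the log2 scale this is a difference of -0.39 (SE 0.46), and the 95% interval of the cKO to control ratio ran from 0.359 to 1.62. Leaving out control replicate 2 gave 0.27, and leaving out control replicate 1 gave -1.05 (limma, adjusted p = 0.99998), so 1 array set its sign.

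Cdh2, which encodes N-cadherin, a classical cadherin found on satellite cells and on many other cells, was dim. Its brighter probe set read 87.6 and 117 in control and 155 and 117 in cKO, and the other read 80.4 and 128 in control and 135 and 54.7 in cKO. These signals lie close to the filter signal of 63.9. Control replicate 2 and cKO replicate 2 agreed on the brighter probe set (117 on each), and the probe sets went opposite ways, with log2 differences of 0.41 (SE 0.39) and -0.23 (SE 0.53). The mean of both gave 0.087. With arrays quantile normalized or centred on their median, both cKO arrays lay above both control arrays on the brighter probe set, and the call was still absent. It was the one tested member so placed of 22 after quantile normalization, where 11.1% of all probe sets were, and 1 of 3 with centred arrays (11.9% of all), beside the second brightest Itgb1 probe set and a dimmer one of Ncam1. For that probe set the ratio's 95% interval ran from 0.706 to 2.49.

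Itga7 encodes the alpha7 integrin chain, which pairs with beta1 to bind laminin and is used as a sorting antigen for satellite cells. It read 388 and 644 in control and 528 and 387 in cKO. As for Cdh15, control replicate 2 was highest, and control replicate 1 and cKO replicate 2 were nearly equal and lowest. cKO minus control was -0.14 (SE 0.36) in log2 units, and turned to 0.22 without control replicate 2 and to 0.079 without cKO replicate 2. The 95% interval of the ratio ran from 0.502 to 1.63.

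Itgb1 encodes the beta1 chain, the shared partner of many alpha chains and present on most adherent cells. Its brightest probe set read 1841 and 1774 in control and 1911 and 1260 in cKO. The low value was cKO replicate 2 alone; the other 3 arrays lay within 1774 to 1911. The groups differed by -0.22 (SE 0.25) on the log2 scale, which became 0.080 without cKO replicate 2 and -0.52 without cKO replicate 1. The second brightest probe set, at 1270 and 1128 in control and 1286 and 1083 in cKO, differed by -0.021, or by 0.072 with centred arrays, where both cKO arrays lay above both control arrays, and the third by -0.20. On both dim Itgb1 probe sets the arrays numbered 1 read higher than those numbered 2 of the same group. One read 198 and 115 in control and 200.1 and 115 in cKO, a log2 difference of 0.0091. The other read 166 and 88.8 in control and 115 and 72.5 in cKO, lower in cKO within both numbers; its log2 difference of -0.41 (SE 0.47) was the lowest of the 22 tested members, although the groups overlapped.

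Vcam1, an immunoglobulin-type adhesion molecule that binds the alpha4 beta1 integrin and is widely used to isolate quiescent satellite cells, was bright on every array. Its brightest probe set read 4006 and 4861 in control and 4270 and 4239 in cKO. Both cKO values lay between the control values. This gave a log2 difference of -0.053 (SE 0.14), which was 0.0084 after quantile normalization and 0.040 with centred arrays, and the 95% interval of the ratio ran from 0.761 to 1.22. On the other probe sets control replicate 2 stood further out: one read 1489 and 2345 in control and 1620 and 1550 in cKO, and the other 524 and 1172 in control and 508 and 720 in cKO. Their log2 differences were -0.24 and -0.37, so that the 3 probe sets shared a sign but not a size, and groups overlapped on each.

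Ncam1 encodes the neural cell adhesion molecule, which binds like molecules on the neighbouring cell and marks myogenic and neural cells. Its brightest probe set read 2973 and 3642 in control and 3210 and 3099 in cKO, again with both cKO values between the control ones. In log2 units cKO lay at -0.061 (SE 0.16) from control, at 0.0040 after quantile normalization and at 0.031 with centred arrays, and the ratio's interval ran from 0.734 to 1.25. Of its 7 probe sets, 4 lay below 0 and 3 above, from -0.33 (586 and 1008 in control against 638 and 587 in cKO) to 0.34 on the dimmest, where control arrays read 27.0 and 139 and cKO arrays 112 and 55.1. That dimmest probe set differed 5.15-fold between the control arrays, more than any other tested member. On the unscaled signals all Ncam1 probe sets overlapped between the groups; with centred arrays the one that read 221 and 188 in control and 237 and 190.2 in cKO had both cKO arrays above, with a difference of 0.15.

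Cd34, a sialomucin found on quiescent satellite cells and also on endothelial and blood progenitor cells, was the only tested member whose cKO arrays both lay below both control arrays, an arrangement seen in 13.5% of all probe sets tested. It read 1510 and 1156 in control and 1043 and 1147 in cKO. Control replicate 1 was the array that stood out, and control replicate 2 and cKO replicate 2 were nearly equal. The values were 1333 ± 250.2 and 1095 ± 73.2 (SD, n = 2), with a log2 difference of -0.27 (SE 0.24) and a ratio whose interval ran from 0.559 to 1.23. Without control replicate 1 the difference shrank to -0.080, and without control replicate 2 it was -0.46. The separation of the arrays was lost both after quantile normalization and with centred arrays. Endothelial cells also express Cd34. The summed signal of 15 endothelial genes was 10459 and 1301 in control and 9637 and 1503 in cKO: control replicate 1 was highest for both this sum and Cd34, while cKO replicate 1, with the next highest sum, was lowest for Cd34. The part of endothelial cells in the Cd34 difference was not tested.

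Megf10, a receptor with EGF repeats that acts in the balance of satellite cell proliferation and differentiation, was on the unscaled signals the only tested member with both cKO arrays above both control arrays, as were 7.87% of all probe sets tested. Its probe set read 2456 and 2427 in control and 2479 and 2679 in cKO. These values were the closest together of any tested member, the highest being 1.10 times the lowest. Its log2 difference of 0.078 (SE 0.16) came with an interval of the ratio from 0.808 to 1.38. The lower cKO array exceeded the higher control array by less than the gap between the control arrays, and under both other scalings the groups overlapped.

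Cxcr4, the receptor for the chemokine Cxcl12 and a sorting antigen of satellite cells, read 4057 and 4705 in control and 4079 and 4505 in cKO. Both arrays numbered 1 were low and both numbered 2 high, whatever the genotype. Between the groups the log2 difference was -0.027 (SE 0.14), or 0.022 after quantile normalization and 0.065 with centred arrays, and the ratio's interval ran from 0.778 to 1.24.

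**Figure D2:**
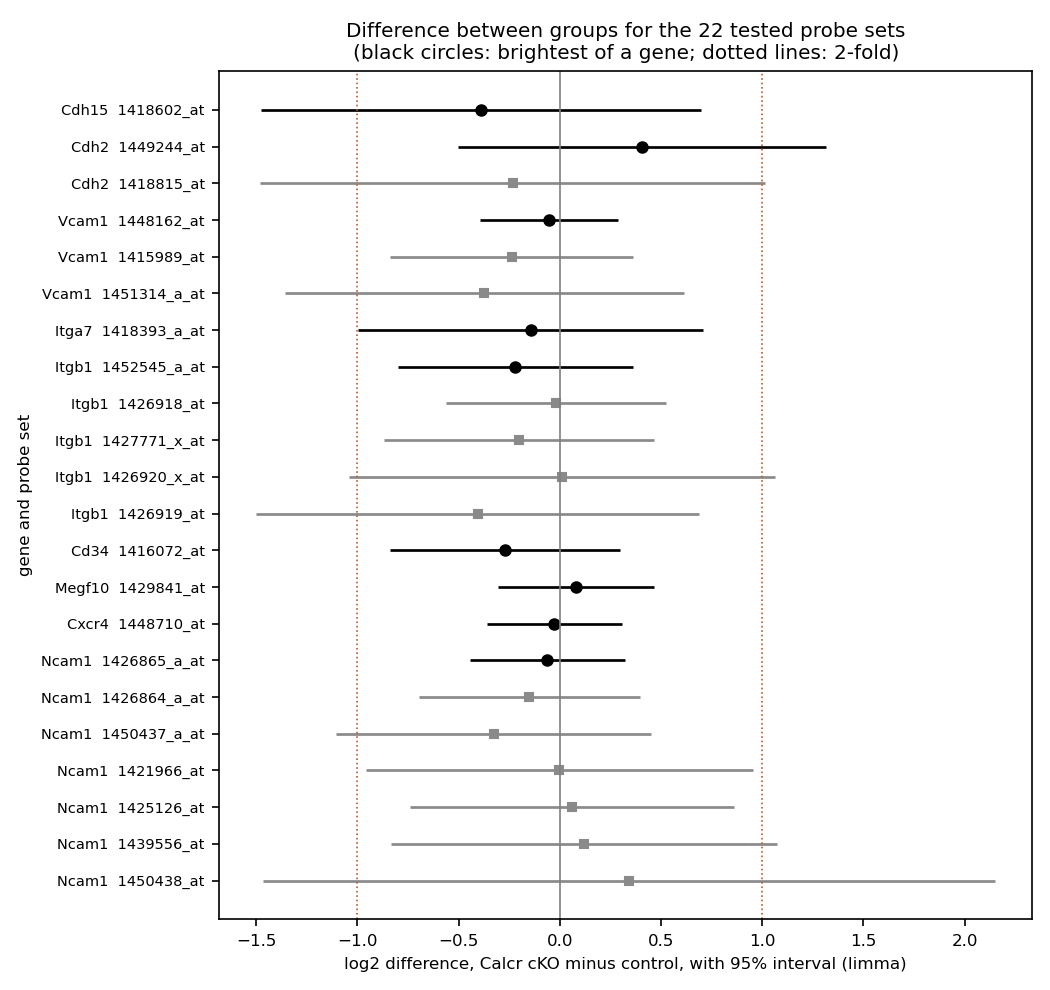
Log2 difference, cKO minus control, of the 22 tested probe sets (x axis), with 95% intervals from limma; black circles are the brightest probe set of a gene, grey squares the others, and dotted lines mark 2-fold. Every interval crosses 0; the brightest probe sets of Vcam1, Megf10, Cxcr4 and Ncam1 have the narrowest intervals among the 9 genes.

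Within the replicate numbers the group differences pointed in opposite ways for most of these probe sets. Between the arrays numbered 1, 18 of the 22 tested members were higher in cKO (81.8%, against 55.2% of all probe sets tested), with a median log2 difference of 0.11. Between the arrays numbered 2, 19 of 22 were lower in cKO (86.4%, against 64.9%), with a median of -0.25, where the median of all probe sets was -0.16. The sign differed between the numbers for 15 of 22 members (68.2%, against 58.2% of all), and in all 15 cKO was higher between the arrays numbered 1 and lower between those numbered 2, an order chosen for description after the values were seen. That order held in 39.1% of all probe sets on the unscaled signals. It held for 11 members after quantile normalization (50%, against 28.1%) and for 12 with centred arrays (54.5%, against 33%). These counts are of probe sets that are not independent, since several belong to the same gene, most of all Ncam1 and Itgb1. By brightest probe set the order held after quantile normalization for Cdh15, Vcam1, Itga7 and Ncam1, and with centred arrays also for Itgb1. Cdh15 gave 0.54 and -1.32, Itga7 0.44 and -0.73, and the dimmer Cdh2 probe set 0.74 and -1.21; with quantile normalization Cdh15 gave 0.49 and -1.11, and Itga7 0.39 and -0.55. Cd34 gave -0.53 and -0.011, and Megf10 0.013 and 0.14; after quantile normalization the second value of Cd34 was 0.16 and the first of Megf10 was -0.051.

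**Figure D3:**
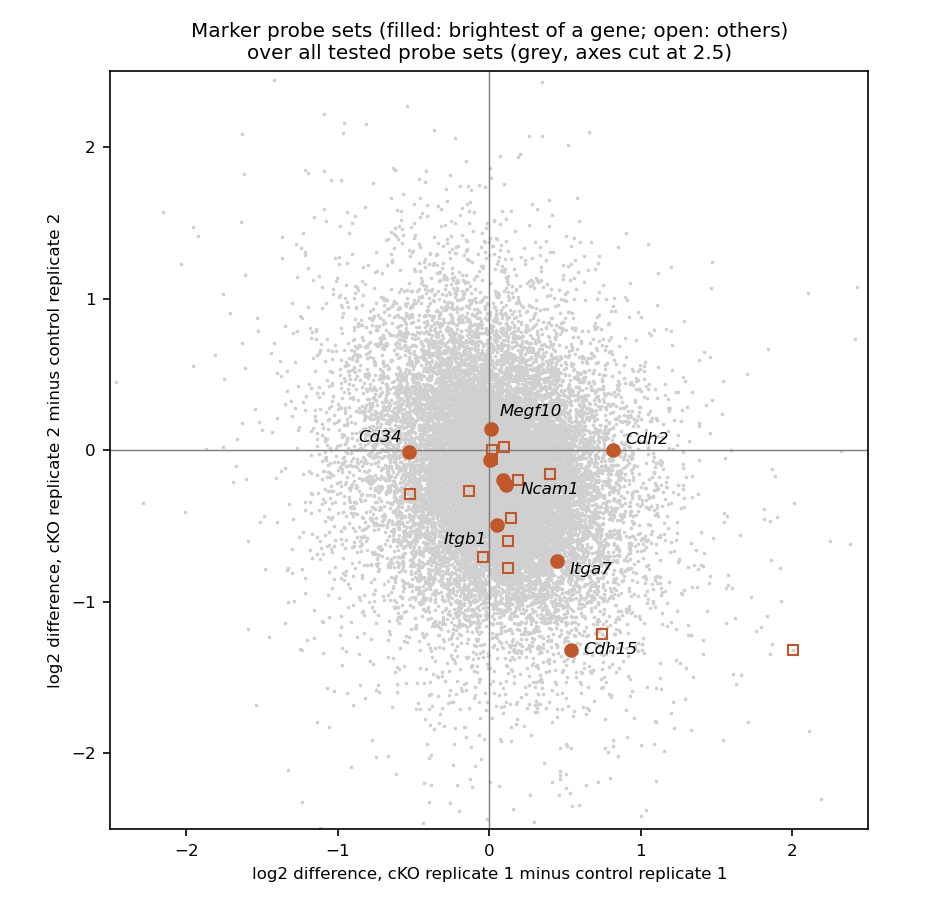
Log2 difference between the arrays numbered 1 (x axis) and between those numbered 2 (y axis) for marker probe sets (filled, brightest of a gene; open, others) over all tested probe sets (grey). Most markers lie in the lower right part, above 0 for number 1 and below 0 for number 2, with Cdh15 at 0.54 and -1.32.

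Control replicate 2 was the array on which the markers were most often highest, in 10 of 22 tested probe sets (45.5%, against 34.3% of all tested); it was 9 after quantile normalization (40.9%, against 28.5%). By brightest probe set these were Cdh15, Vcam1, Itga7, Cxcr4 and Ncam1, that is 5 of 9 genes, against 39.8% of all genes; Cxcr4 was highest on cKO replicate 2 under both other scalings. Of 9 tested genes of satellite cell identity, 6 were highest on control replicate 2 unscaled, beside the 39.8% of all genes. Under each of the other scalings 4 were. Pax7, the defining transcription factor, read 2319 and 3647 in control and 2170 and 2434 in cKO. Myf5, a myogenic transcription factor, was high on both arrays numbered 2, at 2028 and 3002 in control and 1878 and 2843 in cKO. The identity genes Hes1 and Six4 were highest on cKO replicate 2, at 458 and 608. Besides Calcr, both arrays of cKO lay below control for Chrdl2, a secreted BMP antagonist (999 and 2086 against 476 and 91.3), under all 3 scalings, and above for Hey1, a Notch target gene (1796 and 1447 against 1840 and 2300.3), but not after quantile normalization. Neither was called. The summed signal of 9 identity genes was 10783 and 16327 in control and 9492 and 12180 in cKO. In RNA from a sorted population, fewer cells of a type and less RNA per cell cannot be told apart. The part of this array's identity signal in the marker differences was not tested.

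Transcripts of other cell types also moved between arrays. The summed endothelial and pericyte signals followed the replicate number in both groups, with 14 of 15 and 8 of 9 genes tested; the pericyte and smooth muscle sum was 14137 and 7257 in control and 15896 and 6144 in cKO. Ptprb, the endothelial gene brightest by mean signal, read 1346 and 145 in control and 1328 and 117 in cKO, although the sort was on YFP. Flt1, a VEGF receptor gene, read 1226 and 58.9 against 1036 and 94.6. Tek, named after its values were seen, differed less between the numbers, at 832 and 295 against 579 and 444. Of the brightest pericyte and smooth muscle genes, Rgs5 went the same way, at 5200 and 442 against 4828 and 649, whereas Acta2, smooth muscle actin, stayed within 3562 to 4947. Leukocyte transcripts, with 7 of 15 genes tested, summed to 1590 and 2818 in control and 1661 and 644 in cKO; Laptm5, a lysosomal membrane gene of blood cells, read 313 and 328 in control and 86.6 and 23.7 in cKO, and Fcer1g 108 and 175 against 90.1 and 54.8. The macrophage genes Lyz2 and Cd68 overlapped between the groups on the unscaled signals, with Lyz2 lowest on cKO replicate 2 (50.7). Cd68, the 1 of 7 tested leukocyte genes above 0, read 334 and 195 in control and 402 and 282 in cKO. With centred arrays both its cKO arrays lay above both control arrays, as in 11.9% of all probe sets tested. Among fibro-adipogenic genes Gsn read 6245 and 7294 against 5843 and 6065, a separation lost with centred arrays, and Dcn, the decorin gene, 2935 and 2432 against 2313 and 3848. The myelin gene Mbp followed the replicate number too, at 1249 and 96.2 against 1194 and 55.4, while Ngfr, which Schwann cells express, and the muscle fibre genes Acta1 and Atp2a1 overlapped between the groups, at 98.5 to 252, 478 to 881 and 381 to 628. No signal of any list was at 0 on any array. Cxcr4 and Itgb1 are also expressed by leukocytes and by endothelial cells, and the part of those cells in their signals was not tested.

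**Figure D4:**
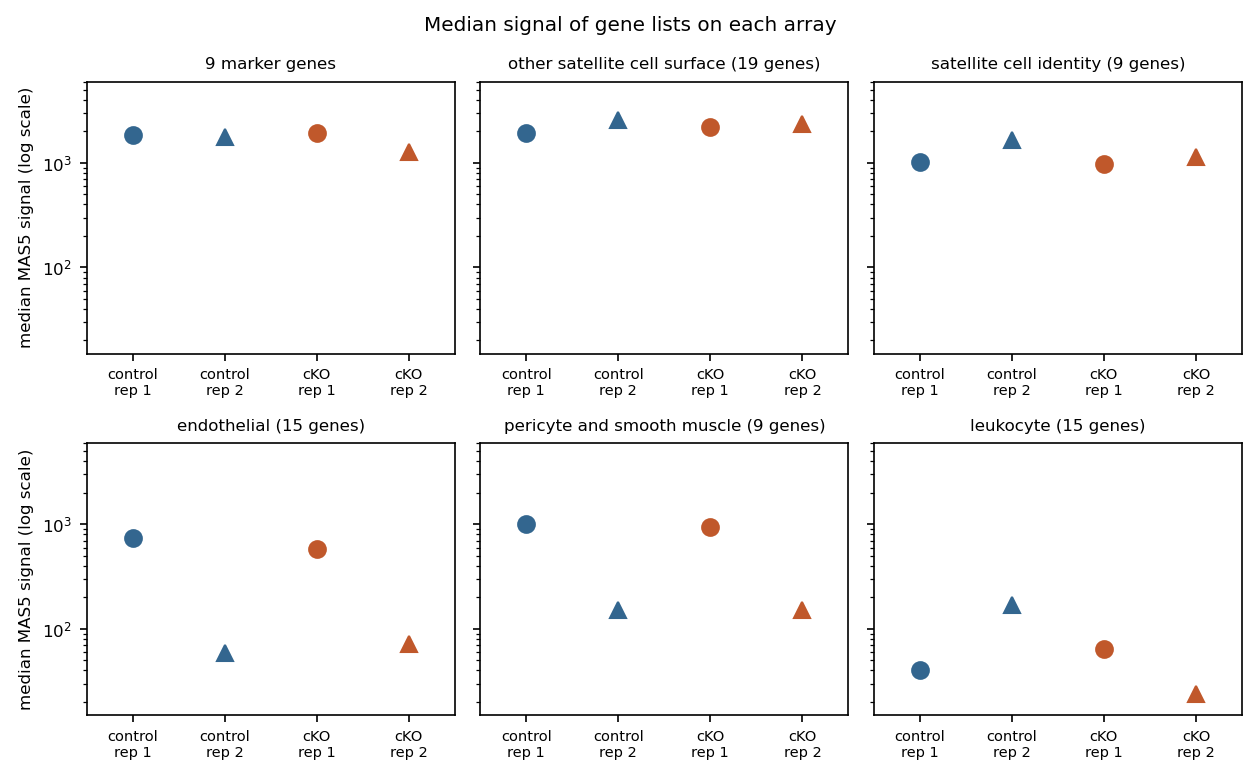
Median MAS5 signal (log scale) of 6 gene lists on each of the 4 arrays, each gene by its brightest probe set. The median of the 9 marker genes lies between 1260 and 1911. On every array it is the value of the brightest Itgb1 probe set, so it does not show how the other markers moved. The endothelial median is 745 and 579 on the arrays numbered 1 and 58.9 and 71.9 on those numbered 2.

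The machinery around these markers was described from lists of related genes, each gene by its brightest probe set. None of their tested genes passed limma's adjusted threshold in either direction, as for 0% of the 10140 genes; the arrays of cKO lay wholly above control in 8.53% of genes and wholly below in 12.1%. Separations between the groups in these lists are those of the unscaled signals. They remained after quantile normalization and with centred arrays for Itga8, Tln2, Ackr3, Gfra1, Pear1 and Vangl2. After quantile normalization alone they remained for Ctnnd1, Itgb5, Pxn, Fgfr1, Cd82 and Cdon, and under neither for Cdh13, Lama2 and Sdc4. Other genes separated only after rescaling. Bcar1 lay above under both other scalings, while Actn1 lay above and Itga5 below after quantile normalization. With centred arrays Adam10 and Met lay above and Itgav below. Of all probe sets tested, 58.9% had a difference below 0 on the unscaled signals.

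Of the catenins and other anchors that tie cadherins to actin, 0 of 6 tested genes were called, and all 6 lay below 0 with a median log2 difference of -0.18; after quantile normalization 5 did and with centred arrays 4. Only Ctnnd1, which encodes p120-catenin and stabilises cadherins at the membrane, did not overlap: it read 2530 and 2734 in control and 1795 and 2177 in cKO (log2 difference -0.41, SE 0.19). Among other cadherins only 2 of 8 were tested; Cdh13, a cadherin anchored by a lipid, read 1349 and 1952 in control and 1193 and 1287 in cKO.

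Of 9 tested genes for other integrin chains, 4 lay above 0 and 5 below, with a median of -0.13. Itgb5, a partner of the alphav chain, read 237 and 394 in control and 220.3 and 208 in cKO. Itga8 read 768 and 716 in control and 854 and 783 in cKO, without overlap in either gene. Of 11 integrin adaptors, 8 lay below 0 (median -0.14), among them the talin gene Tln2, at 882 and 964 against 859 and 685, and the paxillin gene Pxn, at 1540 and 1701 against 1459 and 1377.

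Ligands, counter-receptors and paralogues of the markers had a median of 0.11 over 10 tested genes. In this list 4 genes had both cKO arrays below both control arrays, namely Ackr3, Gfra1, Pear1 and Fgfr1, and Lama2 had both above. Ackr3 encodes the second Cxcl12 receptor, which takes the chemokine up, and read 2889 and 3188 in control and 2418 and 2325 in cKO (log2 difference -0.36, SE 0.16). Gfra1, a co-receptor of GDNF that can signal with Ncam1, read 388 and 590.3 in control and 343 and 266 in cKO (-0.66, SE 0.35). Pear1, of the same EGF-repeat family as Megf10, read 176 and 135 against 113 and 96.1, and the FGF receptor gene Fgfr1 3162 and 3520 against 2688 and 3041. The ligand of Cxcr4, Cxcl12, which was named after its values were seen, read 1880 and 290.2 in control and 1834 and 399.8 in cKO, following the replicate number as the endothelial genes did. Podxl, a sialomucin of the Cd34 family that was named in the same way, read 920.5 and 90.9 in control and 1008 and 128 in cKO. Of the enzymes that cleave or modify the markers, 3 were tested and all lay above 0 (median 0.10); no gene of that list was without overlap.

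Other surface genes of satellite cells gave 7 above 0 and 12 below among 19 tested, with a median of -0.07; with centred arrays 8 lay below and the median was 0.025. Cd82, a tetraspanin, read 3055 and 3781 in control and 3009 and 2407 in cKO (log2 difference -0.34, SE 0.19). The syndecan gene Sdc4 read 4813 and 5803 against 4802 and 4707, and Cdon, a co-receptor that binds cadherins, 1914 and 2163 against 1786 and 1818. Vangl2, of planar cell polarity, was the one with both cKO arrays above, at 101 and 103 against 158 and 130.3. In this list 14 of 19 genes were highest on control replicate 2, where 39.8% of all genes were highest. Cdh15, Itga7 and Vcam1 were highest on the same array. The count was 10 after quantile normalization (28.5% of all probe sets tested) and 11 with centred arrays (34% of all probe sets tested).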

How the data were processed

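The deposited values are MAS5 signal intensities of 45101 probe sets on 4 arrays, linear and not logged, per the submitters' processing notes and the values themselves; the scaling target is unknown. Total RNA was biotin-labelled by a small sample protocol, per the labels. Array medians ran from 57.9 to 70.4 and trimmed means from 211 to 240, so overall brightness is uncertain by about that much. The lowest value of both measures was that of cKO replicate 2. Probe sets were named from the platform annotation, and 9 of 9 member symbols were found in the mouse gene table (GRCm38.p6), whose build is used only for the promoter windows.

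Signals were analysed as log2(signal + 1), a scale on which the folds of dim probe sets come out too small. The 64 AFFX probe sets were left out, as were probe sets with a mean log2 value below the median. The groups were compared over 22519 probe sets with limma 3.58.1 in R 4.3.3 (lmFit, eBayes with an intensity trend), with Benjamini-Hochberg adjustment at 0.05. Residual degrees of freedom were 2, and prior ones 5.32. All p-values are 2-sided and measure the spread between these arrays, whose separate origin rests on their titles. The steps were run on simulated arrays with known changes and independent noise. Those arrays lack the shared deviation of same-numbered arrays, so they do not show what size of change could be detected here. Means and SDs are of signals.

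Members and lists were chosen with earlier results of these data known. All members were named, with Calcr, and up to 4 genes of each other list with the smallest p among those without overlap. Of the cell type lists the 2 genes brightest by mean signal were named. Cxcl12, Podxl, Tek and the genes separated only after rescaling were added after their values were seen. So were the comparison within replicate numbers, the counts of genes highest on control replicate 2, the counts of intervals within a fold, the rescaled counts and the choice of promoters. Alternatives were normalization, pseudocount, filter, trend, replicate block, leaving out each array, and the mean over probe sets. The muscle fibre and Schwann cell lists (8 and 3 genes tested) had median log2 differences of -0.16 and -0.43, with no call.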

Additional observations from a re-analysis of the deposited data

How the results depend on the processing

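In the 12 alternatives to the settings above, 0 member probe sets were called in each; one of these was an unadjusted p under 0.05 with at least a 2-fold difference, applied to all 4 arrays. Without control replicate 1 the log2 difference of Cdh15 was -1.05, from a fit that keeps 1 control array. Cdh2 had no value with the filter at the 75th percentile. Over all probe sets the count of calls was 0 except with the replicate block (5), without control replicate 1 (1) and without cKO replicate 1 (5); leaving out arrays gave 0 to 5. Same-numbered arrays deviated together from their group means (r = 0.43 across probe sets, which are not independent). With 2 arrays a group this is a single correlation, and differently numbered arrays must give its mirror image (-0.43). Such a value from 2 pairs does not establish pairing, and the block changed no call among the members. The members' median ranged from -0.26 to 0.066 when arrays were left out. With quantile normalization Vcam1, Cxcr4 and Ncam1 turned to 0.0084, 0.022 and 0.0040, and with arrays centred on their median to 0.040, 0.065 and 0.031. The cause was not tested. Leaving out an array changed the sign for Cdh15 (-1.05 to 0.27), Itga7 (-0.51 to 0.22), Itgb1 (-0.52 to 0.080), Vcam1 (-0.19 to 0.087), Ncam1 (-0.21 to 0.085) and Cxcr4 (-0.13 to 0.079). Cdh2 (0.20 to 0.61), Megf10 (0.022 to 0.13) and Cd34 (-0.46 to -0.080) kept theirs. In all, 93 of 107 gene values kept sign and side of the threshold. These fits give the remaining single array the spread of the other group. Cdh2 signals lay close to the filter signal of 63.9.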
